A study of Mus musculus with 20 samples.

Results

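Livers deficient in both CAR and PXR were compared with wild-type livers for their transcript response to TCPOBOP. The arrays were chosen by title: 4 arrays titled TCPOBOP CAR/PXR and 6 titled TCPOBOP WT, which make up 10 of the 20 arrays of the series. CAR/PXR-deficient mice and wild-type mice both received 10 mg/kg TCPOBOP intraperitoneally. All were male C57BL/6J mice aged 9-12 weeks, and livers were taken after 12 h. Each array carried RNA of treated liver in the red dye Cy5 and, in the green dye Cy3, a pool of 6 livers of the same genotype that had received vehicle, 5% DMSO in corn oil. The dyes were never swapped, and each genotype had 1 pool. The other 10 arrays hold CAR-deficient livers (6 arrays) and PXR-deficient livers (4 arrays) treated in the same way.

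CAR and PXR are nuclear receptors of the liver that sense foreign compounds. They pair with RXR on DNA and switch on genes of drug metabolism and transport, such as cytochromes P450, transferases and export pumps. TCPOBOP is a potent activator of mouse CAR. The array, Sterolgene V1, was made for genes of cholesterol homeostasis and drug metabolism. The files identify a probe by a number alone and do not pair it with a gene, so probes are described here by their identifiers, without gene names, and the loss of the CAR and PXR transcripts in the deficient livers was not checked. For the same reason no probe sequence or genome position is given.

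A response is the loess-normalized log2 ratio of treated liver over its pool, averaged over the spots of a probe: 1 stands for a doubling over the pool and -1 for a halving. The array has 120 mouse probes. Testing needed values on 3 or more arrays in each of the genotypes, which 82 probes had. The difference is the mean response of CAR/PXR livers minus that of WT livers, tested with limma across all 20 arrays with Benjamini-Hochberg adjustment over the 82 probes, and a probe was called at an adjusted p under 0.05. The titles number separate samples, and nothing else states that they were separate animals, so the p-values measure the spread between these samples. Because each genotype has 1 pool, an error in a pool stays in every response of that genotype and is not part of any SE given here.

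Some features of the arrays moved with genotype. Before normalization the median log2 ratio lay between 0.45 and 0.72 on the CAR/PXR arrays and between -2.08 and -0.055 on the WT arrays. Within WT, arrays 1 to 4 lay between -2.08 and -1.25, while WT 5 and WT 6 lay at -0.063 and -0.055. Between 35 and 73 of the 120 probes were well above background in Cy3 on CAR/PXR arrays, against 74 to 89 on WT arrays. In Cy5 the numbers were 60 to 103 probes on CAR/PXR arrays and 43 to 92 on WT arrays. The ratio control spots also separated the genotypes. Their odd-numbered minus even-numbered log2 ratio was -3.58 to -3.05 on CAR/PXR arrays and -4.23 to -3.75 on WT arrays, a narrower span in CAR/PXR. CAR/PXR 1 had no excluded spot, and the other CAR/PXR arrays had 94 to 148, against 120 to 247 on the WT arrays. All 120 probes thus kept a value on CAR/PXR 1. It had the fewest probes well above background of the CAR/PXR arrays, 35 in Cy3 and 60 in Cy5. The protocol text of CAR/PXR 3, WT 3 and WT 5 names pooled vehicle animals for both dyes, although their treatment label is TCPOBOP, and the pool of CAR/PXR 3 is labelled PXR deficient in one field. These arrays were kept under their titles. The part of these features in the results below was not tested, and values that bear on them stand beside the results.

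After normalization the responses of different CAR/PXR arrays correlated with each other at r = 0.50 to 0.70 across probes, and those of WT arrays at 0.55 to 0.94. Between a CAR/PXR and a WT array r lay between -0.61 and 0.08. These values describe the arrays over shared probes, which are not independent. They take in Mm038 and Mm039, with WT means of 4.74 and 4.19, against at most 1.76 for any other tested probe. The pool channel of these 2 probes was not well above background on most of these arrays. Their weight in r was not tested. The dyes are given in the labels, so the direction of each ratio was kept, treated over pool. The median SD of a probe was 0.16 over CAR/PXR arrays and 0.23 over WT arrays, and 0.13 between the spots of a probe on an array. Precision is limited by the number of arrays, and each SE also takes in the spread of the single deficiencies, which share the fit. With only the CAR/PXR and WT arrays fitted, the median SE of the difference was 0.14. In that fit 31 of 82 probes were called, 14 higher and 17 lower. In the fit of all 20 arrays the difference had a median SE of 0.17 with loess, against 0.40 with centring on calibration controls. For the 58 probes that were not called there, the 95% interval with loess reached a median of 0.35 to each side, from 0.20 to 1.58.

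The response differed between the genotypes for 24 of the 82 probes (29.3%). The response was higher in CAR/PXR livers than in WT livers for 9 probes (11.0%) and lower for 15 (18.3%). The higher differences ran from 0.37 to 1.12 with a median of 0.65, and the lower ones from -5.72 to -0.31 with a median of -1.03, against a median of 0.02 over all 82 probes. Before adjustment, 38 probes had a p under 0.05. The split between higher and lower depends on the scaling: with each array centred on its median in place of loess, 38 probes were called, 21 higher and 17 lower, and with centring on spiked-in calibration controls 8 were called, 2 higher and 6 lower. All 24 differences kept their direction under both scalings of these same arrays. Of them, 22 were still called with median centring and 8 with calibration controls. Without the arrays whose protocol text conflicts, 16 of the 24 were still called, 7 higher and 9 lower.

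**Figure D1:**
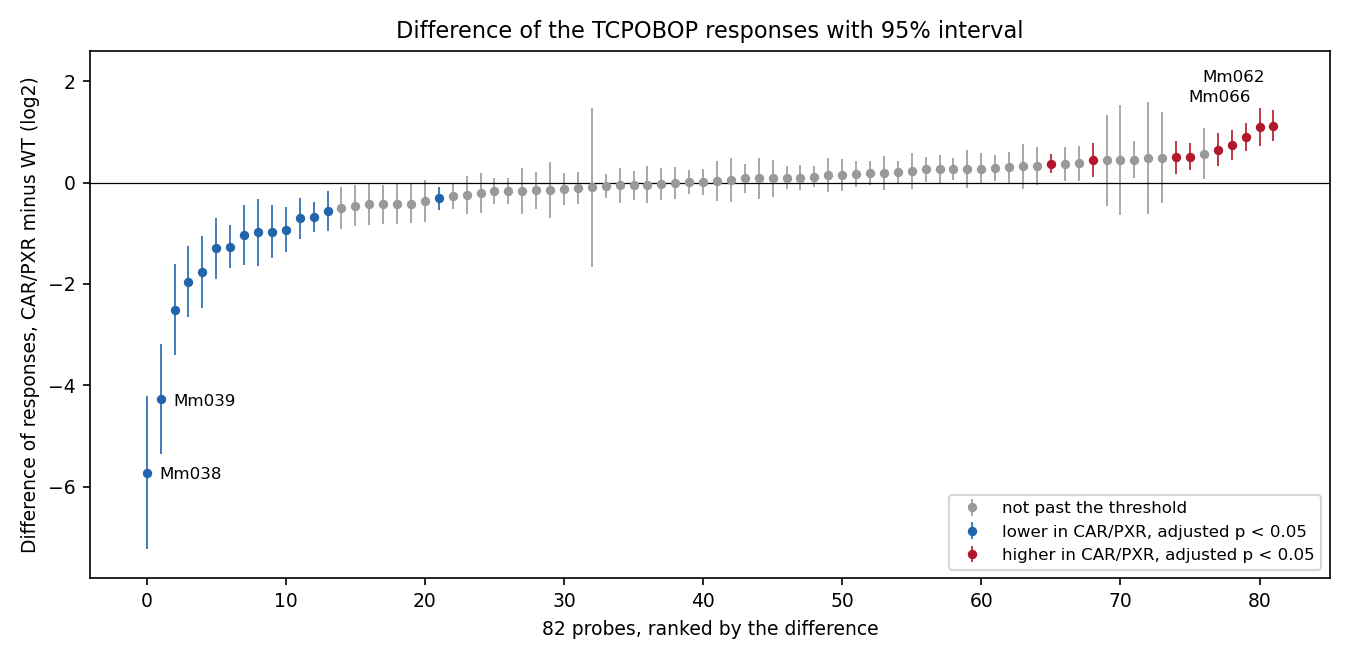
Difference of the mean TCPOBOP response, CAR/PXR minus WT, on the log2 scale (vertical axis) for the 82 tested probes in order of the difference (horizontal axis). Points are estimates and bars 95% intervals; the 9 red probes are higher and the 15 blue probes lower in CAR/PXR at an adjusted p under 0.05, and the lower side reaches -5.72 while the higher side ends at 1.12.

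In 22 of the 24 called probes the means of the 2 genotypes stood on opposite sides of 0, against 46 of all 82 probes (56.1%). Among the 9 higher probes, the response rose in CAR/PXR livers and fell in WT livers for 4, fell in WT livers with no call in CAR/PXR livers for 4, and rose in CAR/PXR livers with no call in WT livers for 1. Among the 15 lower probes, it fell in CAR/PXR livers and rose in WT livers for 3, rose in WT livers with no call in CAR/PXR livers for 10, and fell in CAR/PXR livers with no call in WT livers for 2. A missing call in one genotype does not show that its response was 0. Mean responses of the higher probes ran from 0.01 to 0.65 in CAR/PXR livers and from -0.51 to -0.23 in WT livers. Those of the lower probes ran from -0.99 to 0.08 in CAR/PXR livers and from -0.11 to 4.74 in WT livers.

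Each genotype was also tested against its own pool. In CAR/PXR livers 10 probes rose against their pool (12.2%) and 7 fell (8.54%). In WT livers 20 rose (24.4%) and 12 fell (14.6%). These splits depend on the scaling. With median centring 13 probes rose and 5 fell in CAR/PXR livers, and 17 rose and 14 fell in WT livers. With calibration controls no CAR/PXR response was called (15 had an unadjusted p under 0.05, limma), while 5 probes rose and 21 fell in WT livers. In the table of values deposited by the authors, 68 probes could be tested. There 6 fell and none rose in CAR/PXR livers, and 2 rose and 13 fell in WT livers. At this threshold 2 probes rose in both genotypes. The number of CAR/PXR calls was lower without any 1 of the CAR/PXR arrays, which also leaves fewer arrays in the fit. It was 11 without CAR/PXR 1, 13 without CAR/PXR 2, 10 without CAR/PXR 3 and 9 without CAR/PXR 4, against 17 with all. Of the 10 that rose in CAR/PXR livers, 5 differed from WT and were higher there, and of the 7 that fell, 5 differed and were lower. Of the 20 that rose in WT livers, the difference was called for 13, all lower in CAR/PXR, and 7 gave no call for the difference. Of the 12 that fell in WT livers, 8 were called higher in CAR/PXR and 4 gave no call.

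**Figure D2:**
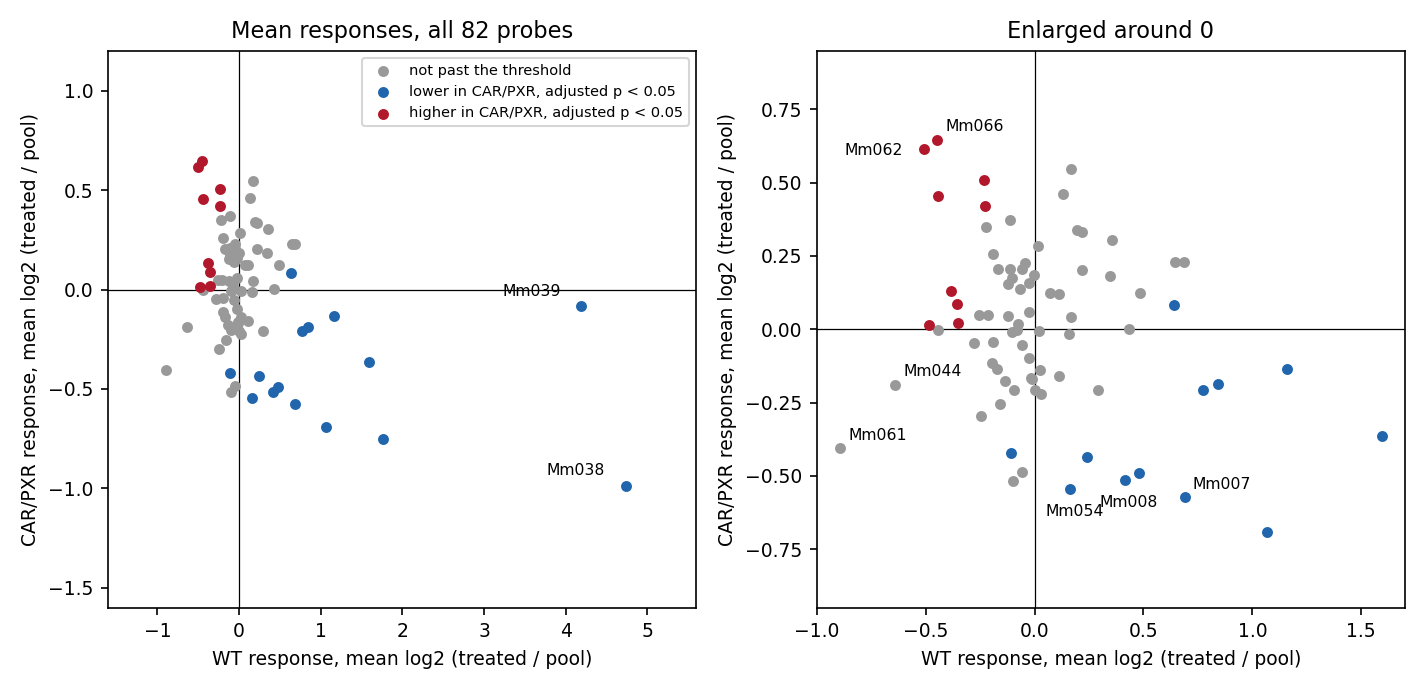
Mean response in CAR/PXR livers (vertical axis) against mean response in WT livers (horizontal axis), each as log2 of treated over pool, for the 82 tested probes, with an enlarged view around 0 on the right. The 9 red probes lie to the upper left, positive in CAR/PXR and negative in WT, and 13 of the 15 blue probes lie to the lower right.

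Mm062 had the largest difference of the probes that were higher in the double deficiency. Its response was 0.41, 0.54, 0.75 and 0.76 on the CAR/PXR arrays, against a lowest value of -0.75, a median of -0.53 and a highest value of -0.25 on the WT arrays. All CAR/PXR arrays lay above 0 and all WT arrays below it. The mean was 0.62 ± 0.17 in CAR/PXR livers and -0.51 ± 0.22 in WT livers (SD, n = 4 and 6). The difference was 1.12 ± 0.15 (SE) with a 95% interval of 0.82 to 1.43 and an adjusted p of 1.01e-05 by limma, a ratio of the treated-to-pool ratios of 2.18. Both responses were called on their own, at an adjusted p of 0.00240 for the rise in CAR/PXR livers and 2.14e-04 for the fall in WT livers.

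Mm066 followed it. Its response was 0.64, 0.44, 0.76 and 0.74 on the CAR/PXR arrays, against a lowest value of -1.08, a median of -0.39 and a highest value of 0.01 on the WT arrays. The groups did not overlap, although WT 5 and WT 2 lay close to 0. The mean was 0.65 ± 0.15 in CAR/PXR livers and -0.45 ± 0.43 in WT livers (SD, n = 4 and 6), and the difference was 1.10 ± 0.17 (SE; adjusted p = 7.70e-05, limma). Both responses were called here too. On CAR/PXR 1 the Cy3 signal of Mm062 and Mm066 was not well above background; without that array the differences stayed past the threshold, as they did without any other CAR/PXR or WT array in turn, between 1.08 and 1.19 for Mm062 and between 0.97 and 1.19 for Mm066.

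On the lower side, Mm038 and Mm039 had the largest differences, and they are also the probes with the largest rises in WT livers. The next largest, Mm052 (-2.51) and Mm051 (-1.96), had both channels well above background on all CAR/PXR and WT arrays. Both had an adjusted p of 1.23e-04 by limma. Mm038 gave -0.50, -0.43, 0.13 and -3.15 on the CAR/PXR arrays, against a lowest value of 1.91, a median of 5.04 and a highest value of 6.20 on the WT arrays. The value of -3.15, on CAR/PXR 4, rests on 1 spot. The difference was -5.72 ± 0.72 (SE; adjusted p = 1.01e-05, limma). The treated channel was well above background on 6 of 6 WT arrays and on 1 of 4 CAR/PXR arrays, whereas the pool channel was so on no array of either genotype, so the ratio is only a bound. In the mean log2 level of the 6 WT arrays, treated liver was at least 17.3-fold above the floor of the pool channel. This value was taken from the channels separately (loess, then Aquantile) and is open to dye bias, since no dyes were swapped. It does not bound each array: the log2 ratio was 1.91 on WT 1, against 4.89 to 6.20 on the other WT arrays. No bound is given for CAR/PXR livers.

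Mm039 gave -0.04, -0.10, -0.05 and -0.15 on the CAR/PXR arrays, against a lowest value of 1.56, a median of 4.70 and a highest value of 4.88 on the WT arrays. The CAR/PXR values lay within 0.15 of the pool, and the groups were far apart. The mean was -0.09 ± 0.05 in CAR/PXR livers and 4.19 ± 1.30 in WT livers (SD, n = 4 and 6), with a difference of -4.28 ± 0.51 (SE; adjusted p = 1.01e-05, limma). Its treated channel was well above background on 3 of 4 CAR/PXR arrays and 6 of 6 WT arrays, but its pool channel on only 1 of 4 CAR/PXR arrays and 1 of 6 WT arrays. The ratios of Mm039 thus rest on a pool signal not well above background on most arrays, and the sizes of its WT mean and difference are fitted values, not measured levels of the pool. WT 1 stood below the other WT arrays for Mm038 and for Mm039. It was the WT array nearest to the CAR/PXR arrays for 13 of the 15 lower probes, against 2 of the 9 higher ones. Without WT 1, 24 probes were called, 9 higher and 15 lower.

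**Figure D3:**
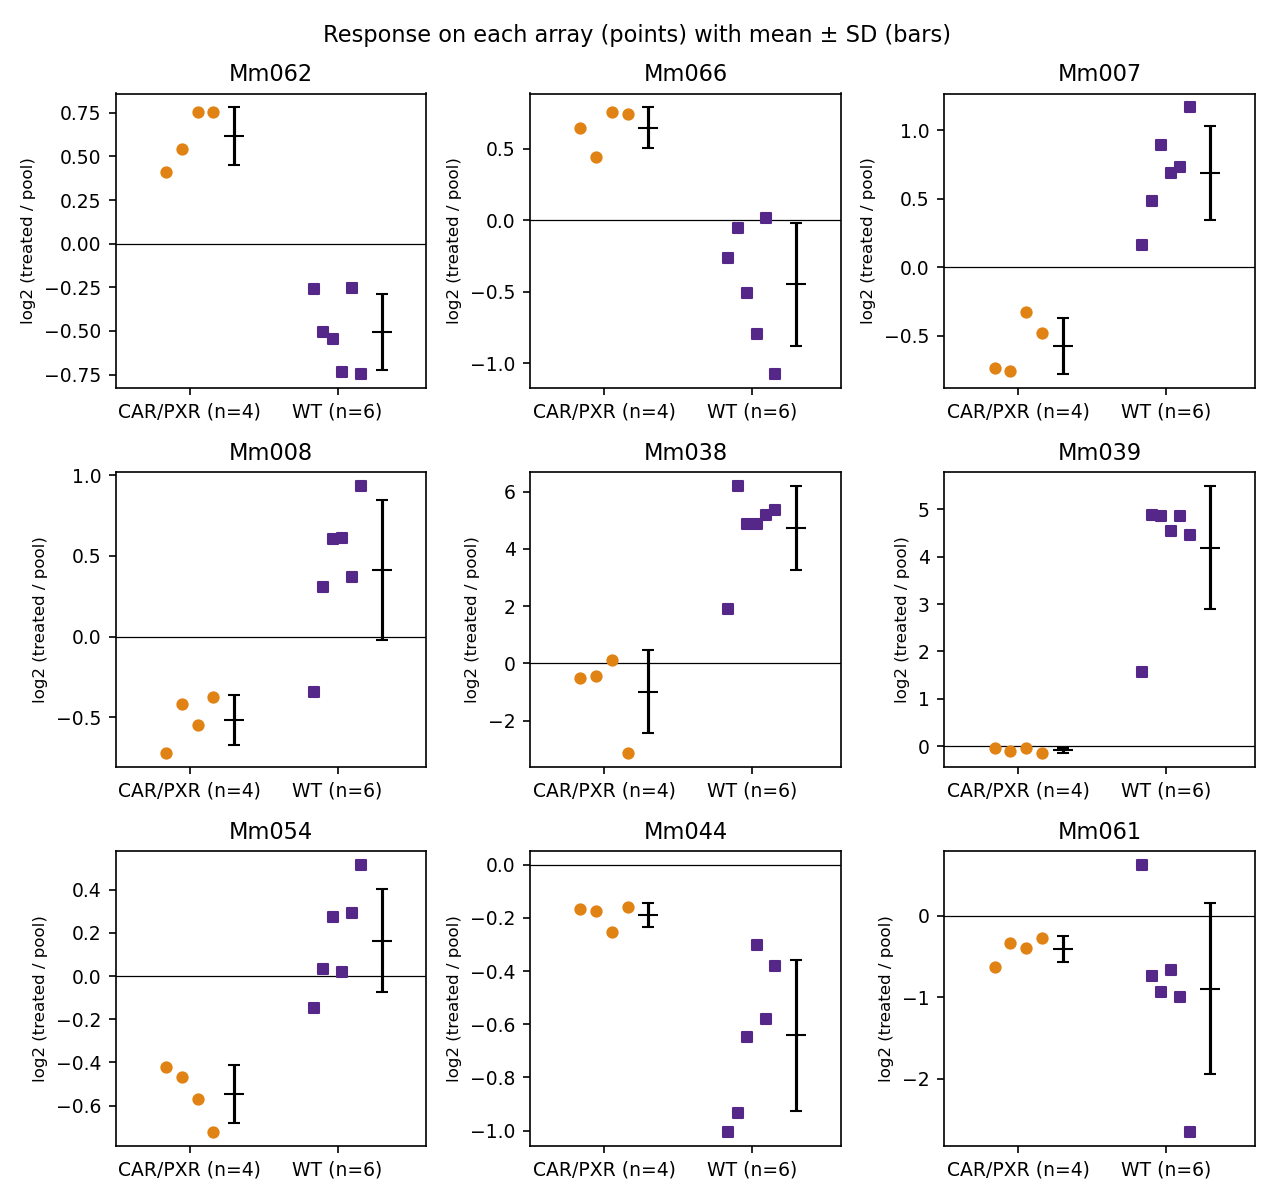
Response of the 9 named probes on each array as log2 of treated over pool (vertical axes, each with its own range), with CAR/PXR arrays as circles on the left and WT arrays as squares on the right. Bars give the mean and SD; Mm062 and Mm007 lie on opposite sides of 0 on every array, and the WT arrays of Mm061 span -2.66 to 0.62.

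The sign of the response differed between the genotypes for many probes. For 46 of the 82 (56.1%) the 2 means lay on opposite sides of 0: 26 were positive in CAR/PXR livers and negative in WT livers, and 20 were negative in CAR/PXR livers and positive in WT livers. Both means were positive for 16 probes and negative for 20. In 24 of the 46 the difference was not called, with a size between 0.03 and 0.57 and an adjusted p between 0.0622 and 0.904 by limma. The other 22 were called, which takes in all 9 higher probes and 13 of the 15 lower ones. The count of 46 is a description that depends on where each array's 0 lies: with centring on the calibration controls it was 26 of 82, and there the median response of all probes was -0.31 in CAR/PXR livers and -0.36 in WT livers, against 0.01 and -0.03 with loess.

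In 7 probes both responses were called, in opposite directions. The 4 that rose in CAR/PXR livers and fell in WT livers had means of 0.46 to 0.65 in CAR/PXR livers and -0.51 to -0.23 in WT livers, with differences of 0.74 to 1.12. Mm062 and Mm066 are the largest of them. The 3 that fell in CAR/PXR livers and rose in WT livers had means of -0.57 to -0.43 in CAR/PXR livers and 0.24 to 0.69 in WT livers, with differences of -1.26 to -0.68. This count moved with single arrays. It was 4 without CAR/PXR 1, without CAR/PXR 2 or without WT 3. It was also 4 without the arrays whose protocol text conflicts (CAR/PXR 3, WT 3, WT 5 and 1 CAR-deficient array). The probes among them that fell in CAR/PXR livers numbered 0 without CAR/PXR 2 and 1 in each of the others. With median centring the count stayed 7, but 6 rose and 1 fell in CAR/PXR livers. With the calibration controls it was 0, and there no CAR/PXR response was called and 15 had an unadjusted p under 0.05 by limma.

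Mm007 was the largest of the probes that fell in CAR/PXR livers and rose in WT livers. Its response was -0.73, -0.76, -0.33 and -0.48 on the CAR/PXR arrays, against a lowest value of 0.16, a median of 0.71 and a highest value of 1.17 on the WT arrays. Every CAR/PXR array lay below 0 and every WT array above it. The mean was -0.57 ± 0.21 in CAR/PXR livers and 0.69 ± 0.35 in WT livers (SD, n = 4 and 6). The difference was -1.26 ± 0.20 (SE; adjusted p = 7.70e-05, limma), a ratio of 0.417. The fall in CAR/PXR livers had an adjusted p of 0.0141 and was no longer called without CAR/PXR 1 or without CAR/PXR 2, where the highest adjusted p was 0.0692.

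Mm008 gave -0.72, -0.42, -0.55 and -0.37 on the CAR/PXR arrays, against a lowest value of -0.34, a median of 0.49 and a highest value of 0.93 on the WT arrays. The groups did not overlap, but WT 1, at -0.34, lay just above the highest CAR/PXR array. The difference was -0.93 ± 0.21 (SE; adjusted p = 0.00220, limma). The fall in CAR/PXR livers, -0.52 at an adjusted p of 0.0296, lost its call without any 1 of the 4 CAR/PXR arrays, with an adjusted p of up to 0.139, and the rise in WT livers, 0.41 at 0.0196, lost it without WT 3, WT 4 or WT 6, with an adjusted p of up to 0.0958. The call of the difference itself held without each array in turn for both Mm007 and Mm008, and was lost for both with calibration controls (-1.03 each, adjusted p = 0.270 and 0.234) and in the authors' value table (-0.98 and -1.07, 0.261 and 0.211).

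Arrays separated the genotypes more strictly for some probes than the means do. In 26 of 82 probes (31.7%) no CAR/PXR array overlapped a WT array: 12 with CAR/PXR above and 14 with CAR/PXR below. These take in 8 of the 9 higher probes and 12 of the 15 lower ones. In 10 probes every CAR/PXR array lay on one side of 0 and every WT array on the other, 3 with CAR/PXR above and 7 with CAR/PXR below.

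The remaining named probes had the largest responses of one genotype. Mm054, one of the 2 largest called falls in CAR/PXR livers, gave -0.42, -0.47, -0.57 and -0.72 on the CAR/PXR arrays, against a lowest value of -0.15, a median of 0.15 and a highest value of 0.51 on the WT arrays. All CAR/PXR arrays lay below all WT arrays. The difference was -0.71 ± 0.19 (SE; adjusted p = 0.00696, limma), and the WT response was not called. The treated channel was well above background on 4 of 4 CAR/PXR arrays and 2 of 6 WT arrays. The call of the difference was lost without the arrays whose protocol text conflicts (-0.64, adjusted p = 0.0775), within the slide position of larger Y coordinate (-0.63, 0.297), with calibration controls (-0.72, 0.325) and in the authors' value table (-0.80, 0.227). It was also lost with WT 1 to WT 4 as the only WT arrays (-0.59, 0.0509), a split chosen after the arrays' medians had been seen.

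Mm061 and Mm044 had the largest called falls in WT livers. Mm061 gave -0.63, -0.33, -0.39 and -0.27 on the CAR/PXR arrays, against a lowest value of -2.66, a median of -0.84 and a highest value of 0.62 on the WT arrays. The WT arrays enclosed the CAR/PXR arrays on both sides. The difference was 0.49 with a 95% interval of -0.41 to 1.38 and an adjusted p of 0.401 by limma, which leaves room for a difference in either direction. The fall in WT livers, -0.89, had an adjusted p of 0.0119 and lost its call without WT 6 (adjusted p = 0.0727). Without that array the difference was 0.13, and it was 0.02 with WT 1 to WT 4 alone and 1.42 (adjusted p = 0.0257) with WT 5 and WT 6 alone.

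Mm044 gave -0.17, -0.17, -0.25 and -0.16 on the CAR/PXR arrays, against a lowest value of -1.01, a median of -0.61 and a highest value of -0.30 on the WT arrays. The responses were negative on all 10 arrays and did not overlap between the genotypes. The difference of 0.45 ± 0.17 (SE) had an adjusted p of 0.0533 by limma and missed the threshold. It passed the threshold in 12 of 34 alternatives, and over all 34 the adjusted p ran from 0.0148 with print-tip loess to 0.400 with WT 5 and WT 6 as the only WT arrays.

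The double deficiency was also set against each single one. CAR/PXR livers differed from CAR-deficient livers in 18 of the 82 probes (22.0%) and from PXR-deficient livers in 23 (28.0%). These comparisons share the CAR/PXR arrays with the one above, so their values are given side by side. Of the 9 higher probes, 5 were also called against CAR-deficient livers, 4 against PXR-deficient livers, 4 against both and 4 against neither. Of the 15 lower probes, 5 were called against CAR-deficient livers, 11 against PXR-deficient livers, 3 against both and 2 against neither.

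Mm062 was higher in CAR/PXR livers than in either single deficiency, by 0.97 against CAR-deficient livers (adjusted p = 2.02e-04, limma) and by 0.88 against PXR-deficient livers (4.87e-04). Mm066 was higher by 0.76 (0.00579) and by 0.53 (0.0459). For these probes the mean response was 0.62 and 0.65 in CAR/PXR livers, -0.35 and -0.11 in CAR-deficient livers, and -0.26 and 0.12 in PXR-deficient livers.

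The large WT rises behaved otherwise. The sizes given for Mm038 and Mm039 are fitted values over a pool signal that was not well above background on most CAR/PXR and WT arrays, and the treated channel of Mm038 was above it on 1 of 4 CAR/PXR arrays. Mm038 was lower in CAR/PXR than in PXR-deficient livers by -5.07 on the log2 scale (adjusted p = 2.83e-04, limma) and Mm039 by -3.59 (2.83e-04). Against CAR-deficient livers the differences were -1.34 ± 0.79 (SE; 0.285) and -0.49 ± 0.56 (0.642) and were not called. Both probes had values on 4 of the 6 CAR-deficient arrays, and a missing call does not show that the responses were alike. Mm007 and Mm008 were lower than in PXR-deficient livers, by -1.02 (0.00277) and -0.97 (0.00511), and differed from CAR-deficient livers by -0.55 (0.0576) and -0.32 (0.348), without a call. Mm054 was lower than in both, by -1.14 (4.21e-04) against CAR-deficient and -0.73 (0.0146) against PXR-deficient livers.

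A difference of ratios can come from the treated channel, the pool channel or both. Channel levels of the 2 genotypes were set side by side as a description with no test, after loess and Aquantile normalization, centred on each array and channel by the median of the 75 probes measured on all 10 arrays. For Mm062, CAR/PXR minus WT was 0.64 in the treated channel and -0.82 in the pool channel, and for Mm066 it was 0.35 and -1.08. For Mm007 it was -0.31 and 0.61, and for Mm008 -0.11 and 0.49. The pool channel thus differed more for all 4, and for 7 of the 9 higher probes, since the treated channel differed more for 2. Without the centring, CAR/PXR minus WT in the treated and the pool channel was 1.27 and 0.15 for Mm062, 0.98 and -0.11 for Mm066, 0.32 and 1.58 for Mm007, and 0.52 and 1.45 for Mm008. The larger of the channels thus changed for Mm062 and Mm066 and stayed the pool for Mm007 and Mm008, whose treated channel changed sign. Over the called probes, the treated channel then differed more for all 9 higher probes and for 2 of the 15 lower ones, against 2 of 9 and 8 of 15 with centring. All Cy3 values of a genotype come from 1 pool, so a difference between the pools and one between the genotypes cannot be told apart.

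Not every called probe was bright in both channels. Both channels were well above background on most arrays of both genotypes for 48 of the 82 probes, and for 16 of the 24 called ones, 6 higher and 10 lower. When only those 48 probes were tested, 17 were called, 7 higher and 10 lower.

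The arrays lie at 1 of 2 positions on their slides, told apart by the spots' Y coordinates, with odd replicate numbers at the larger Y and even ones at the smaller. Within the larger-Y position, which leaves 2 CAR/PXR and 3 WT arrays, 4 of 81 probes were called, all higher in CAR/PXR. Within the smaller-Y position, also with 2 and 3 arrays, 20 of 81 were called, 6 higher and 14 lower. All 24 differences kept their direction at both positions, and 4 of them were still called at the larger Y and 19 at the smaller. The 24 were called on these same arrays, so the kept direction is a description and not a further test. At the larger Y, Mm062 differed by 0.94 (adjusted p = 0.0232, limma) and Mm066 by 0.95 (0.0280); at the smaller Y by 1.31 (0.00374) and 1.24 (0.00924). Mm007 differed by -1.13 (0.0741) at the larger Y and -1.40 (0.00377) at the smaller. Mm008, Mm038 and Mm039 were also not called at the larger Y, with adjusted p-values of 0.169, 0.0544 and 0.0699. With position as a block, 24 probes were called, 9 higher and 15 lower.

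**Figure D4:**
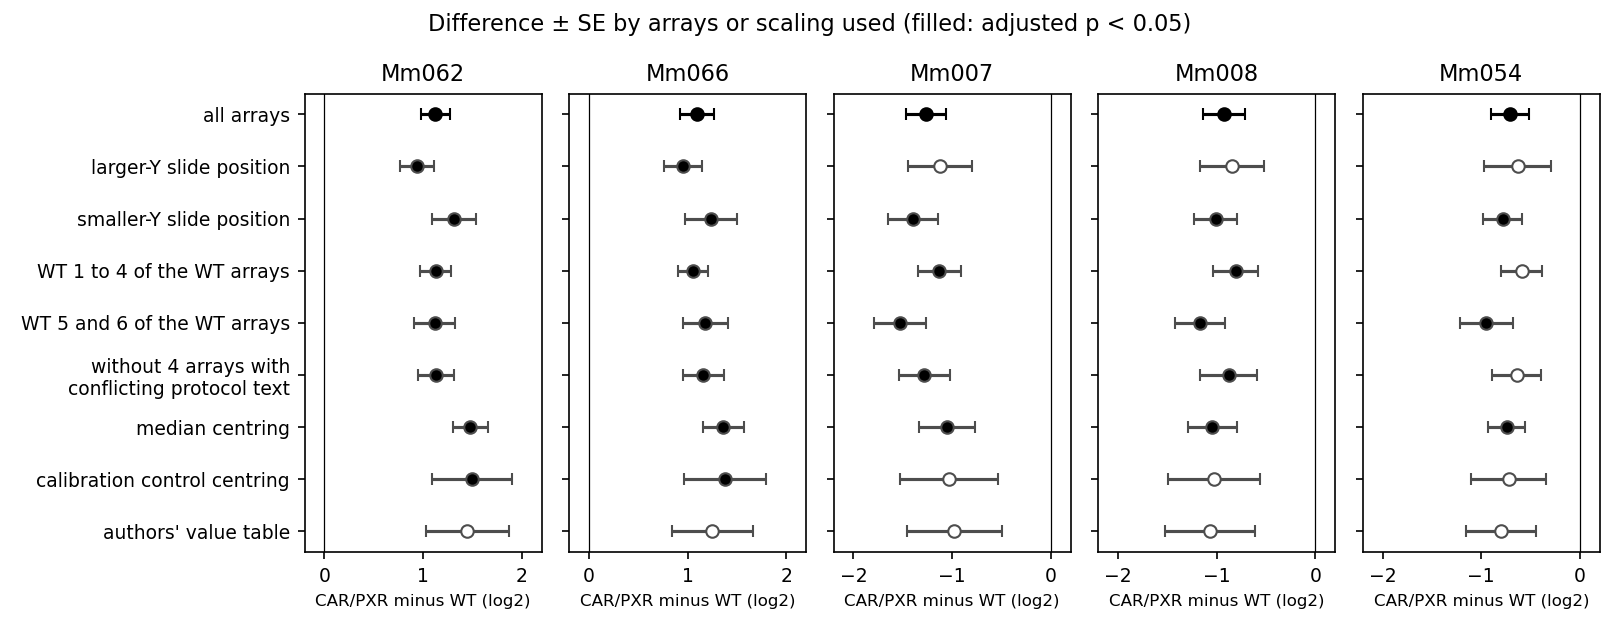
Difference of the response, CAR/PXR minus WT, on the log2 scale (horizontal axes) for 5 probes, by the arrays or scaling used (rows). Points are estimates and bars SE, filled where the adjusted p is under 0.05; every estimate of a probe keeps its side of 0, and in the authors' value table none of the 5 is filled.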

How the data were processed

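Liver RNA was measured on 20 two-colour Sterolgene V1 arrays. Per the file headers, the deposited scanner tables hold, for each of 578 spots, the median foreground and local background intensity in both channels, the percent of saturated pixels, the position and a flag. Neither the software nor the flagging rule is stated by the labels or headers. A table of log2 ratios that the authors deposited served as an alternative. On the CAR/PXR and WT arrays it followed log2 of Cy5 over Cy3 from the scanner values with slopes of 0.85 to 1.15; its column medians were -0.61 to -0.088 on CAR/PXR arrays and -1.02 to 0.65 on WT arrays, and its centring and normalization are unknown.

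Background was corrected with normexp (offset 50), ratios were normalized by loess within arrays giving no weight to controls or flagged spots, which were then dropped, and the spots of a probe, usually 3, were averaged (limma 3.58.1, R 4.3.3). A channel was well above background where it exceeded the local background by 2 SD of it. Linear models with 1 mean per genotype were fitted to all 20 arrays (lmFit and eBayes), with Benjamini-Hochberg adjustment over 82 probes. The linear model alone was tested on simulated probe values with independent noise and 20 changed probes. Normalization, flags, dim channels and an error shared through a pool were not simulated. Samples were grouped by title. Named probes are the 2 largest called ones in each direction of the difference and of each response. For the sign changes, 2 were named in each direction among probes with a called difference. Those with both responses called came first, then the largest. Mm007 and Mm008 were named in this way, although other sign changes, such as Mm052 (-2.51), were larger. Mm051 and Mm052 are outside this rule and are mentioned for comparison. Members, lists and rules were chosen with earlier results of these data known. Arrays were not paired by replicate number. Same-numbered CAR/PXR and WT arrays deviated from their group means with correlations of -0.09 to 0.17, which cannot exclude a pairing. Left out were 38 probes with too few values.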

Additional observations from a re-analysis of the deposited data

Results flagged for a closer look

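Of 18 groups of arrays tested for a single value apart from the rest, 3 were marked, and chance marks about 1 group in 20. Mm044 read -0.25 on CAR/PXR 3, against -0.17 to -0.16 on the other CAR/PXR arrays. Mm038 read 1.91 on WT 1, against 4.89 to 6.20 on the other WT arrays. Mm039 read 1.56 on WT 1, against 4.46 to 4.88 on the others.

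The response of 7 named probes differed between the genotypes in the test of the difference itself (limma, Benjamini-Hochberg adjusted). CAR/PXR minus WT was 1.12 for Mm062 and 1.10 for Mm066, and it was -5.72 for Mm038, -4.28 for Mm039, -1.26 for Mm007, -0.93 for Mm008 and -0.71 for Mm054.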

How the results depend on the processing

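All 24 called differences kept their direction under every alternative in which they were tested, 20 of them in the authors' table. The number called was 24 of 82 probes as reported. It moved by over 1.5 times to 40 of 120 with flagged spots kept, 38 of 82 with median centring and 8 of 82 with calibration controls. It moved likewise to 4 of 81 at the larger-Y position and 0 of 68 in the authors' table, where 13 had an unadjusted p under 0.05. It was 16 without the arrays with conflicting text. The median SE of the difference was 0.40 with calibration controls and in the authors' table, against 0.17. WT responses called were 32 of 82 probes, and 21 of 48 with probes well above background in both channels. In the authors' table they were 15 of 68, and at the larger-Y position 6 of 81. CAR/PXR responses called were 17, and 35 with flagged spots kept, 9 with both channels above background, 8 without the arrays with conflicting text, 6 in the authors' table, 4 at the larger Y, and 0 with calibration controls and at the smaller Y, where 15 and 21 had an unadjusted p under 0.05. Opposite means numbered 46 of 82 probes, and 29 of 48 with both channels above background. They numbered 26 of 82 with calibration controls and 23 of 68 in the authors' table. With the difference called they numbered 22, and 8 with calibration controls, 4 at the larger Y and 0 in the authors' table. With both responses called they numbered 7 of 82, 4 of 82 without the conflicting arrays and 1 of 81 at the larger Y. They numbered 0 of 82 with calibration controls, 0 of 68 in the authors' table and 0 of 81 at the smaller Y. Leaving out each CAR/PXR or WT array in turn gave 21 to 25 called differences, 26 to 34 WT responses, 9 to 20 CAR/PXR responses, 41 to 48 opposite means, 20 to 23 of them with the difference called and 4 to 8 with both responses called.

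With the replicate number as a block, 23 differences were called, 9 higher and 14 lower, and the fall of Mm054 in CAR/PXR livers lost its call (-0.39, adjusted p = 0.0674). Alternatives chosen after seeing the data gave 17 calls with WT 1 to WT 4 alone, 26 with WT 5 and WT 6 alone, and 21 of 68 with the values dropped that the authors' table leaves empty. Mm062 (1.45) and Mm066 (1.25) were past the threshold everywhere but in the authors' table (adjusted p = 0.0584 for both). Mm007 and Mm008 lost the call of the difference with calibration controls, in that table and at the larger Y. The difference of Mm061, not past the threshold as reported, was -0.080 at the larger Y. Both channels were well above background for 16 of the 24 called probes. The cause of these changes was not tested.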

Other observations

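Among the 38 probes left out of the tests, 7 had no value on any WT array and 0 lacked a value on every CAR/PXR array. A further 10 had values on at least 3 arrays of both genotypes and were left out only through the single deficiencies. When the fit asked for values in CAR/PXR and WT arrays alone, 28 of 92 probes were called, 11 higher and 17 lower, and 4 of these 10 were among them, with differences of 0.70, 0.65, -0.38 and -0.94. For 3 of the 4 the means lay on opposite sides of 0.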
